A study of Homo sapiens with 134 samples.

Results

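TIGAR, SESN1, SESN2, SPATA18, RRM2B, GLS2 and NADSYN1 are targets of p53 whose products act in metabolism, and their transcripts were followed in irradiated human bronchial epithelial cells. The 7 genes were chosen by symbol, in the knowledge of their ratios to mock-irradiated cells in these same arrays, so those ratios are given as a description and carry no test. On the array, 6 of the 7 genes had a named probe, 1 each, and all 6 probes passed the filter on low signals. GLS2, a mitochondrial glutaminase, was not analysed here. The whole series holds named probes for 19381 genes.

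The cells were HBEC3KT (spelled HEBC3KT in the study), a line from normal bronchial epithelium that was immortalized with CDK4 and hTERT and has normal p53 checkpoint function, and every group shared this background. They were exposed to iron (Fe) ions at 0.5 or 1 Gy, to silicon (Si) ions at 0.5 or 1 Gy, or to the radiation that the labels call x-ray and the study describes as γ-rays, at 1 or 3 Gy, and were collected after 1, 4, 12 and 24 h. Mock-irradiated cells were collected at each of those times, and reference cells at 0 h. A run is 1 radiation type in 1 of 5 campaigns (08A, 08C, 09A, 09B and 09C), and the 9 runs, 3 per radiation type, are the replicates. With repeat arrays averaged, the 134 arrays gave 71 irradiated, 36 mock and 9 reference samples, and the Fe run 08A had no sample of 0.5 Gy at 12 h. The line is a single immortalized culture, so the spread between runs holds no difference between donors.

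When DNA is damaged, p53 is stabilized and switches on genes that stop the cell cycle, and also genes that steer metabolism. TIGAR lowers fructose-2,6-bisphosphate and so slows glycolysis and favours the pentose phosphate pathway. The sestrins SESN1 and SESN2 hold back the growth kinase complex mTORC1, SPATA18 (also called Mieap) acts in mitochondrial quality control, RRM2B is the p53-inducible small subunit of ribonucleotide reductase, which supplies deoxynucleotides for repair, and NADSYN1 carries out the last step of NAD synthesis from nicotinic acid.

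The promoters of TIGAR, the member with the largest mean ratio to mock, and of SESN1 are shown. SESN1 holds the single match to the p53 half-site among the 6 genes with a promoter window. RefSeq windows of 300 bases (250 before to 50 after the start, GRCh38.p14) were found for 6 of the 7 genes, 8 windows in all, and 1 of the 8 held a match on either strand, against 6.63% of 35116 windows of all genes. The TIGAR window is chr12:4320963-4321262 on the + strand, and that of SESN1 is chr6:109008939-109009238 on the - strand. Both run 5′ to 3′, and capitals mark the half-site match, which begins 49 bases before the start of that SESN1 transcript.
TIGAR: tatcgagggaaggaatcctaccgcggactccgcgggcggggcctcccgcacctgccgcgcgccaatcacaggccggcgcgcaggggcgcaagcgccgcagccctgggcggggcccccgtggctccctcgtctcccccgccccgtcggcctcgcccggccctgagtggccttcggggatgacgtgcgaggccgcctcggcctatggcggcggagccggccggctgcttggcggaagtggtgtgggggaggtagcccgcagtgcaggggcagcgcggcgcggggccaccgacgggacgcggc
SESN1: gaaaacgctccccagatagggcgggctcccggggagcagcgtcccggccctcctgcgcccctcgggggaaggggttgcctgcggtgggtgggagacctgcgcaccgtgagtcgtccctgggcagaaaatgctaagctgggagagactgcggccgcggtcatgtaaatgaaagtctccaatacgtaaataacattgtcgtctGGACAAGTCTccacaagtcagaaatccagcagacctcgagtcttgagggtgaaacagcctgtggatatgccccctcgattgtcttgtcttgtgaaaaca

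The other 2 SESN1 starts, and the windows of TIGAR, SESN2, SPATA18, NADSYN1 and GLS2, held no match. RRM2B had no window and was not searched. A match is a run of letters and not a measured binding site.

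Markers of airway basal epithelium were mostly among the brightest probes. Of 9 such markers 7 had a probe and all 7 passed the filter, from the 69.4th percentile of all probes (ITGA6) to the 99.4th (KRT5 and LAMB3), with a median of 98.8. Of 6 fibroblast markers 2 passed, COL3A1 and DCN, at percentiles 59.1 and 65.1. Of 4 endothelial markers 2 passed (the higher KDR, at 72.8), of 5 leukocyte markers 3 (the highest CD14, at 85.3, above the epithelial ITGA6 and CDH1 at 69.4 and 80.3) and of 4 markers of ciliated and secretory cells 2 (the higher SCGB1A1, at 54.4). The median raw signal per array ran between 45.8 and 115.8. Levels below are normalized log2 signals, and 1 unit is a 2-fold difference.

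The 09C run of x-ray stood apart in time. The profile of each sample, taken relative to its run, was set against the mock samples of each time in the other 8 runs. In 32 of 36 mock samples the best match was the labelled time. The x-ray 09C run held 3 of the 4 exceptions: its mock samples labelled 1 h and 4 h were most like 12 h (r = 0.50 and 0.45) and that labelled 12 h most like 24 h (r = 0.31). Of its 8 irradiated samples 6 were likewise displaced, and over all runs 59 of 71 irradiated samples matched their own time best. Times given for that run are those of its labels. Leaving it out gave ratios to mock of 0.25 for SPATA18 at 12 h, 0.23 for NADSYN1 at 24 h and 0.15 for RRM2B at 24 h (against 0.10 with it), and further values without it stand beside the results.

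Among the members, TIGAR had the highest signal and SESN2 the lowest. Over all arrays the mean log2 signals were 9.50 for TIGAR, 8.99 for NADSYN1, 8.38 for RRM2B, 8.32 for SESN1, 7.47 for SPATA18 and 7.05 for SESN2, which lay between the 77.9th and the 91.9th percentile of all probes. These signals belong to different probes and do not rank the transcripts by abundance. Between arrays of the same sample in the Fe run 08A, the standard deviation was 0.21 for TIGAR and 0.45 for SPATA18, with the other members between 0.17 and 0.30.

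TIGAR was higher in irradiated than in mock cells at 4 h in every run. Its level (probe ILMN_1791792, gene at chr12:4321213-4360028 in GRCh38.p14) was 9.72 at lowest, 10.12 at the median and 10.36 at highest in irradiated cells at 4 h, both doses averaged, against 9.35, 9.75 and 10.02 in mock cells, so the groups overlapped while each run moved the same way. The log2 ratio to mock was 0.39 ± 0.13 (SD, n = 9 runs), a 1.31-fold difference. It was 0.46 ± 0.07 after Fe, 0.26 ± 0.11 after Si and 0.47 ± 0.11 after x-ray (n = 3 runs each). At 1 h and 12 h the ratios were 0.04 ± 0.22 and 0.03 ± 0.19, and at 24 h the ratio was 0.30 ± 0.14 with all 9 runs above 0. At 4 and 24 h TIGAR was thus above mock in each run, while at 1 and 12 h the spread between runs exceeded the mean ratio. Without x-ray 09C the ratios at 4 and 24 h were 0.41 and 0.32.

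**Figure D1:**
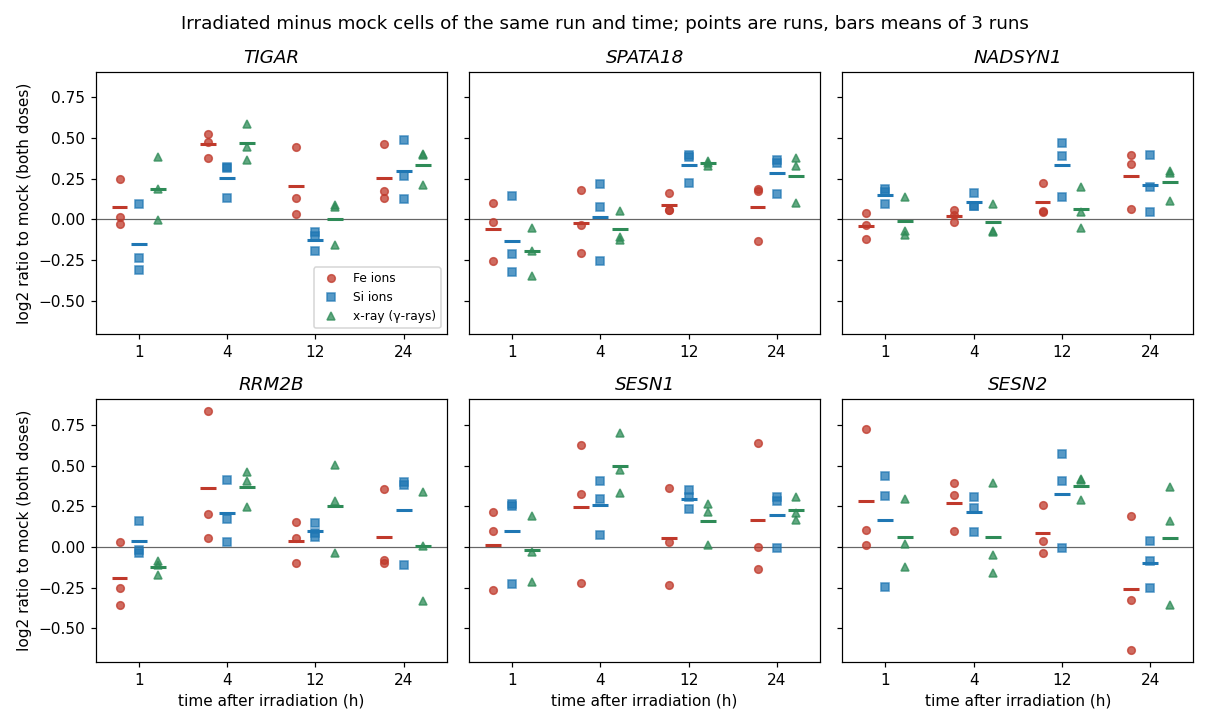
Log2 ratio of irradiated to mock cells of the same run and time (y axis) for the 6 genes at 1, 4, 12 and 24 h (x axis), with Fe in red, Si in blue and x-ray in green; points are runs (both doses averaged) and bars are means of 3 runs. TIGAR lies above 0 in all 9 runs at 4 and 24 h, and SPATA18 in all 9 runs at 12 h.

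SPATA18 and NADSYN1 differed from mock later than TIGAR. SPATA18 (ILMN_1667948, chr4:52051304-52097299) had 7.23, 7.33 and 7.69 (lowest, median, highest) in irradiated cells at 12 h, against 6.84, 7.12 and 7.53 in mock cells. All 9 runs were above their mock, by 0.26 ± 0.14, and at 24 h 8 of 9 runs were, by 0.21 ± 0.16. At 1 and 4 h its ratios were -0.13 ± 0.18 and -0.02 ± 0.17. In the authors' value table, which has no offset, the ratio at 12 h was 0.48. By radiation type, the ratio of SPATA18 at 12 h was 0.09 ± 0.06 after Fe, 0.33 ± 0.10 after Si and 0.35 ± 0.02 after x-ray. NADSYN1 (ILMN_1779034, chr11:71453203-71501816) had 8.81, 9.26 and 9.95 in irradiated cells at 24 h, against 8.57, 8.89 and 9.65 in mock cells, and all 9 runs were above their mock, by 0.24 ± 0.14. Its ratio was 0.04 ± 0.12 at 1 h, 0.04 ± 0.08 at 4 h and 0.17 ± 0.17 at 12 h.

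RRM2B and the sestrins moved less evenly. RRM2B (ILMN_1747763, on chromosome 8) had 7.79, 8.20 and 8.80 in irradiated cells at 4 h, against 7.29, 7.90 and 8.39 in mock cells. The ratio was above 0 in all 9 runs but ran between 0.03 in Si 09C and 0.83 in Fe 09C, with a mean of 0.31 ± 0.25, and at 24 h it was 0.10 ± 0.27 with 5 of 9 runs above 0. SESN1 (ILMN_1800626, chr6:108984309-109094846) had 8.01, 8.17 and 9.05 in irradiated cells at 4 h, against 7.38, 8.01 and 8.36 in mock cells, and its ratio of 0.33 ± 0.28 was above 0 in 8 of 9 runs, Fe 08A (-0.22) being the exception. SESN2 (ILMN_1751598, chr1:28259518-28282491) reached 0.26 ± 0.22 at 12 h, with 7 of 9 runs above 0, and was at -0.10 ± 0.32 at 24 h. In the authors' value table the ratio of SESN2 at 12 h was 0.58. For these 3 genes the spread between runs was close to or above the mean ratio at most times.

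**Figure D2:**
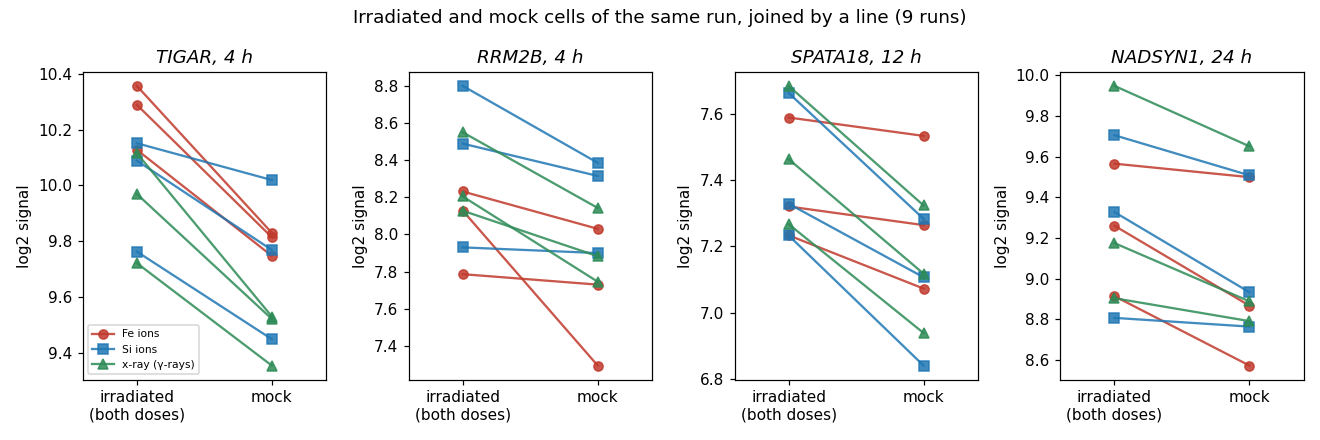
Log2 signal (y axis) of TIGAR and RRM2B at 4 h, SPATA18 at 12 h and NADSYN1 at 24 h in irradiated cells (left, both doses averaged) and mock cells (right), with the 2 values of each of 9 runs joined and radiation types coloured. Every line falls to the right, while the levels of the groups overlap because runs differ among themselves.

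Across all probes few differed from mock, and the members' own calls are listed only to set them against that background, since this comparison chose them. By limma with Benjamini-Hochberg adjustment over 24350 probes, the share called higher in the mean of the 3 radiation types was 0% at 1 h, 0.037% at 4 h (TIGAR among them), 0.0739% at 12 h (SPATA18 among them) and 0.0123% at 24 h (NADSYN1 and TIGAR among them). Over the 4 times of a single type, 0.00821% of probes were called after Fe, 0.0657% after Si and 0.0123% after x-ray, TIGAR being among those called after x-ray. Without x-ray 09C the calls of SPATA18 at 12 h (adjusted p = 0.18) and of NADSYN1 and TIGAR at 24 h (adjusted p = 0.21 and 0.13) were lost, and leaving out other single runs ended these calls in most cases too. No member was called at any time with arrays scaled to equal medians or with the chip as a random block. Of 25 other p53 targets tested, CDKN1A (the cyclin-dependent kinase inhibitor p21, 0.61) and TP53INP1 (0.41) were called higher at 4 h, and the median of the 25 was 0.14, with that of all probes tested close to 0. No gene was called at any time among 10 of deoxynucleotide supply, 13 of NAD synthesis, 19 partners of the sestrins in mTORC1 and AMPK control, 7 of glutamine and glutamate metabolism, 8 of mitochondrial quality control and 23 glycolytic and pentose phosphate enzymes.

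The genes did not form a single pattern. Over the 36 responses (9 runs at 4 times, which share their mock samples within a run and time), Pearson's r was 0.66 between SESN1 and RRM2B and 0.54 between SPATA18 and NADSYN1, and lay between -0.24 and 0.38 in the other 13 pairs. Over the same 36 responses, the other gene most like each member was CIBAR1 for TIGAR (r = 0.69), CEL for SPATA18 (r = 0.77) and TPP1 for NADSYN1 (r = 0.67). It was C21orf91 for RRM2B (r = 0.76), GASK1B for SESN1 (r = 0.77) and CHAC1 for SESN2 (r = 0.69). Each of these r is the highest over all tested probes with a symbol, and none was tested.

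No difference between the 3 radiation types was detected for any member. The test of the difference between types over the 4 times called 0% of probes, and adjusted p for the members lay between 0.79 (TIGAR) and 0.98 (SESN1). With doses averaged (unlike for the ions and x-ray), runs of 2 types did not overlap for SPATA18 and TIGAR at 12 h. The same held for SESN2 at 12 h, TIGAR and NADSYN1 at 4 h, and NADSYN1 and RRM2B at 1 h. With 3 runs per type, such separation can arise by chance. How often runs of 2 types separated over all probes was not counted, so these cases are a description only. SPATA18 had 0.16, 0.06 and 0.06 in the Fe runs, against 0.38, 0.39 and 0.22 in the Si runs and 0.35, 0.33 and 0.36 in the x-ray runs, and the test over the types at that time gave an adjusted p of 0.76. The ratios of TIGAR were 0.44, 0.13 and 0.03 in the Fe runs, against -0.19, -0.10 and -0.08 in the Si runs, and the adjusted p was 0.67. The highest of these, Fe 08A, had 1 Gy only at 12 h, and without it the mean after Fe was 0.08 and exceeded that after Si by 0.21. Within 09C, the campaign that held both, the values of TIGAR were 0.03 after Fe and -0.08 after Si. At the matched dose of 1 Gy, 0.078% of probes differed between Fe and x-ray, 0% between Si and x-ray and 0% between Fe and Si, with no member among them. The member difference farthest from 0 was that of NADSYN1 at 12 h, where the ratio after Si exceeded that after x-ray by 0.61 (95% interval 0.32 to 0.90, adjusted p = 0.14), and without x-ray 09C by 0.46 (0.15 to 0.77, adjusted p = 0.26). For TIGAR at 4 h, Fe exceeded x-ray by 0.21 (-0.07 to 0.50) and Si exceeded x-ray by 0.05 (-0.24 to 0.33), and such intervals leave room for differences as large as the ratio itself.

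Higher doses gave higher TIGAR at 4 h in each run without passing the test. The level at the higher dose exceeded that at the lower dose in all 9 runs, by 0.27 ± 0.17 for Fe, 0.35 ± 0.16 for Si and 0.17 ± 0.11 for x-ray. Over the 4 times, 0% of probes differed between doses of Fe, 0.678% between those of Si and 0.821% between those of x-ray, and no member was among them, with SESN2 after Si nearest (adjusted p = 0.051). SESN2 after Si had 6.85, 6.89 and 6.76 at 1 Gy, against 7.58, 7.58 and 6.99 at 0.5 Gy, at 1 h, and at 12 h it had 7.42, 6.91 and 7.25 at 1 Gy, against 6.95, 6.78 and 6.70 at 0.5 Gy (runs 09A, 09B and 09C). SESN2 was therefore lower at the higher dose at 1 h and higher at 12 h in all 3 runs, and neither time passed on its own (adjusted p = 0.28 and 0.13). The pattern was not particular to SESN2. The dose difference of NADSYN1 after Si was -0.10, -0.47 and -0.09 at 1 h and 0.42, 0.23 and 0.17 at 12 h. SESN1, SPATA18 and RRM2B were also higher at 1 Gy of Si at 12 h in all 3 runs.

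SESN1 was the member with a dose difference at a single time. After 24 h of Fe it had 8.13, 9.20 and 10.15 at 1 Gy, against 7.92, 8.39 and 9.79 at 0.5 Gy (runs 08A, 08C and 09C), a difference of 0.46 ± 0.31 with an adjusted p of 0.035 at that time and 0.39 over the 4 times. At this time 2.73% of probes were called higher at 1 Gy. Without run 08C the difference was 0.28 (adjusted p = 0.999). RRM2B, which followed SESN1 across the responses, differed there by 0.40 ± 0.17 (adjusted p = 0.13).

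**Figure D3:**
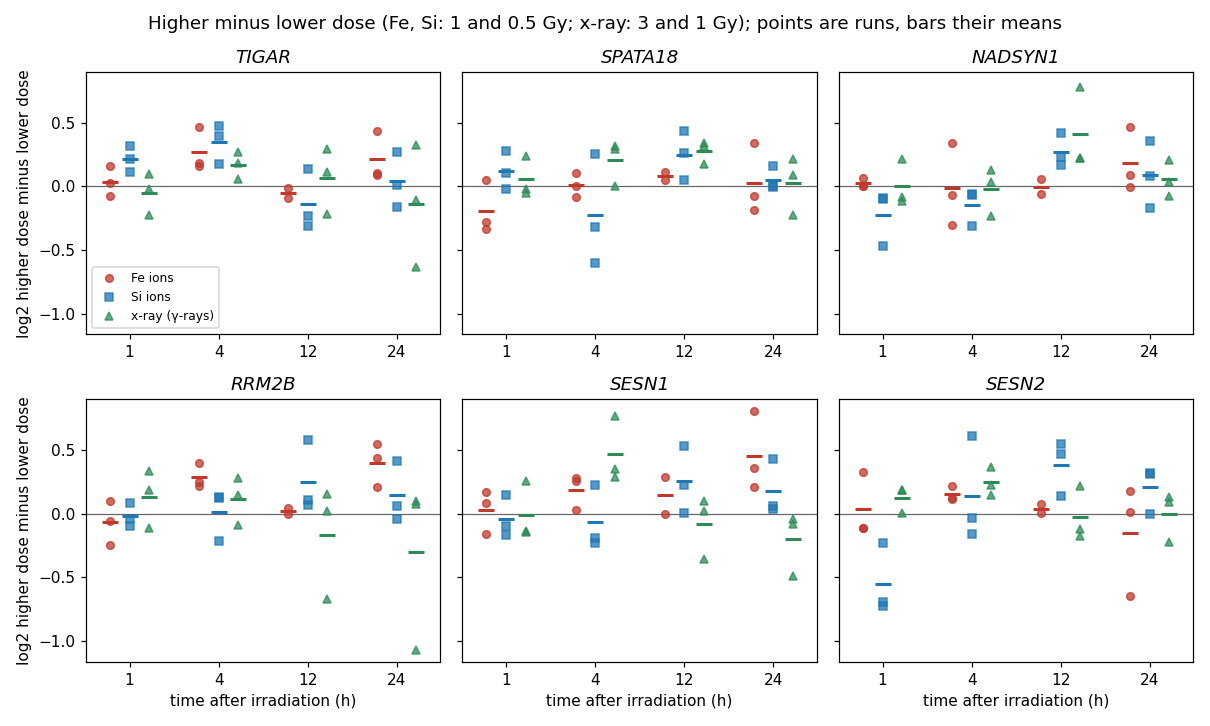
Log2 difference between the higher and the lower dose (y axis; 1 against 0.5 Gy for the ions, 3 against 1 Gy for x-ray) for the 6 genes at 4 times (x axis); points are runs and bars are means. TIGAR at 4 h lies above 0 in all 9 runs, and SESN2 and NADSYN1 after Si lie below 0 at 1 h and above 0 at 12 h.

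In mock cells most of the same genes changed with time in culture, with mean differences of up to 0.67 between neighbouring times. Over the 4 times 25.3% of all probes were called, and 5 of the 6 members were, NADSYN1 being the exception (adjusted p = 0.076, and 0.025 without x-ray 09C). With arrays scaled to equal medians, SESN2 alone was called. In bulk RNA, a change per cell and a change in the share of cells that carry a transcript cannot be told apart.

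TIGAR in mock cells was highest at 4 h. It had 9.35, 9.75 and 10.02 (lowest, median, highest) at 4 h, against 8.70, 9.27 and 9.70 at 1 h, and was higher in all 9 runs, by 0.42 ± 0.24 (adjusted p = 0.0072, 4.49% of probes called higher). RRM2B was lower at 4 than at 1 h in all 9 runs, by 0.44 on average, without passing the test in the main analysis. It passed in 4 of 18 alternatives, among them the one without x-ray 09C (adjusted p = 0.033). Between 4 and 12 h 7.01% of probes were called and no member was, while without x-ray 09C SPATA18 (-0.32, adjusted p = 0.013) and NADSYN1 (-0.20, adjusted p = 0.034) were called lower at 12 h. From 12 to 24 h TIGAR fell in 8 of 9 runs, by 0.32 on average (adjusted p = 0.029, 8.45% of probes called lower), with 8.51, 9.14 and 9.52 at 24 h, against 9.17, 9.38 and 9.96 at 12 h. This fall was no longer called without x-ray 09C (adjusted p = 0.079) or without any of 4 other runs.

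In mock cells 4 of the other 5 genes were called higher at 24 than at 12 h. SESN2 had 7.02, 7.49 and 7.98 at 24 h, against 6.48, 6.68 and 7.52 at 12 h, a difference of 0.67 ± 0.46 (adjusted p = 0.0011). RRM2B differed by 0.55 ± 0.50 (adjusted p = 0.0087), SPATA18 by 0.48 ± 0.37 (adjusted p = 0.0030) and NADSYN1 by 0.24 ± 0.25 (adjusted p = 0.022), while SESN1, at 0.52 ± 0.61, missed the threshold (adjusted p = 0.061, and 0.034 without x-ray 09C). Of all probes, 7.45% were called higher at this step. NADSYN1 was no longer called without Fe 09C (adjusted p = 0.077) or without Si 09A (adjusted p = 0.11). Without x-ray 09C the differences were 0.79 for SESN2, 0.58 for RRM2B, 0.43 for SPATA18 and 0.21 for NADSYN1, all 4 still called. In the authors' value table SESN2 differed by 1.4 and SPATA18 by 0.79.

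At 24 h the mock cells of 3 of the 9 runs, Fe 09C, Si 09A and x-ray 09C, stood above the others for 4 of the genes. SESN1 at 24 h had 9.98, 10.06 and 9.81 in the mock cells of those runs, and the other 6 runs lay between 8.15 and 8.53. RRM2B had 9.67, 9.69 and 9.32 there, against 8.26 to 8.71 in the others, SPATA18 had 8.52, 8.18 and 8.19 against 7.18 to 7.51, and NADSYN1 had 9.50, 9.51 and 9.65 against 8.57 to 8.93. The 3 runs did not overlap the other 6 for any of these 4 genes. How many of all probes separated the same runs was not counted, so the split is not shown to be particular to these genes. In Fe 09C and Si 09A the difference between 24 and 12 h was large (1.61 and 1.49 for SESN1, 1.5 and 1.2 for RRM2B), whereas x-ray 09C was already high at 12 h and differed by 0.02 for SESN1 and 0.29 for RRM2B. SESN2, by contrast, had 7.56, 7.49 and 7.23 in the 3 runs, within the 7.02 to 7.98 of the others. CDKN1A was also high in the 3 runs (14.28, 14.27 and 14.48, against 13.04 to 13.55) and RRM2, the S-phase small subunit of ribonucleotide reductase, was low (8.50, 8.22 and 6.57, against 9.01 or more). These runs were picked out by their values, so no test was made of them. Irradiated cells of the same runs were as high, with SESN1 at 9.97, 10.06 and 10.12, so the ratio to mock at 24 h was -0.0027, -0.0087 and 0.31.

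Some steps in time went the same way in irradiated and mock cells, and the difference between the steps was not tested. Such differences restate the ratios to mock, which chose the members. TIGAR was higher at 4 than at 1 h by 0.77 ± 0.25 in irradiated cells and by 0.42 ± 0.24 in mock cells, and in both in 9 of 9 runs. SESN1 was higher at 24 than at 1 h by 1.13 ± 0.59 in irradiated cells and by 0.97 ± 0.57 in mock cells, again in all 9 runs of both. RRM2B was higher at 24 than at 1 h by 0.64 ± 0.14 in irradiated cells and by 0.45 ± 0.32 in mock cells. In some other steps the mean was close to 0 in irradiated cells and below 0 in mock cells. RRM2B at 4 h relative to 1 h was at -0.03 ± 0.34 in irradiated cells, with 5 of 9 runs above 0, against -0.44 ± 0.46 in mock cells, with 0 of 9. SPATA18 at 12 h relative to 4 h was at 0.02 ± 0.33 in irradiated cells and -0.26 ± 0.21 in mock cells. TIGAR at 24 h relative to 12 h was at -0.05 ± 0.23 in irradiated cells and -0.32 ± 0.23 in mock cells. Elsewhere the step was lower in irradiated than in mock cells. SESN2 at 24 h relative to 12 h was at 0.31 ± 0.48 in irradiated cells and 0.67 ± 0.46 in mock cells. TIGAR at 12 h relative to 4 h was at -0.58 ± 0.29 in irradiated cells and -0.21 ± 0.31 in mock cells.

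**Figure D4:**
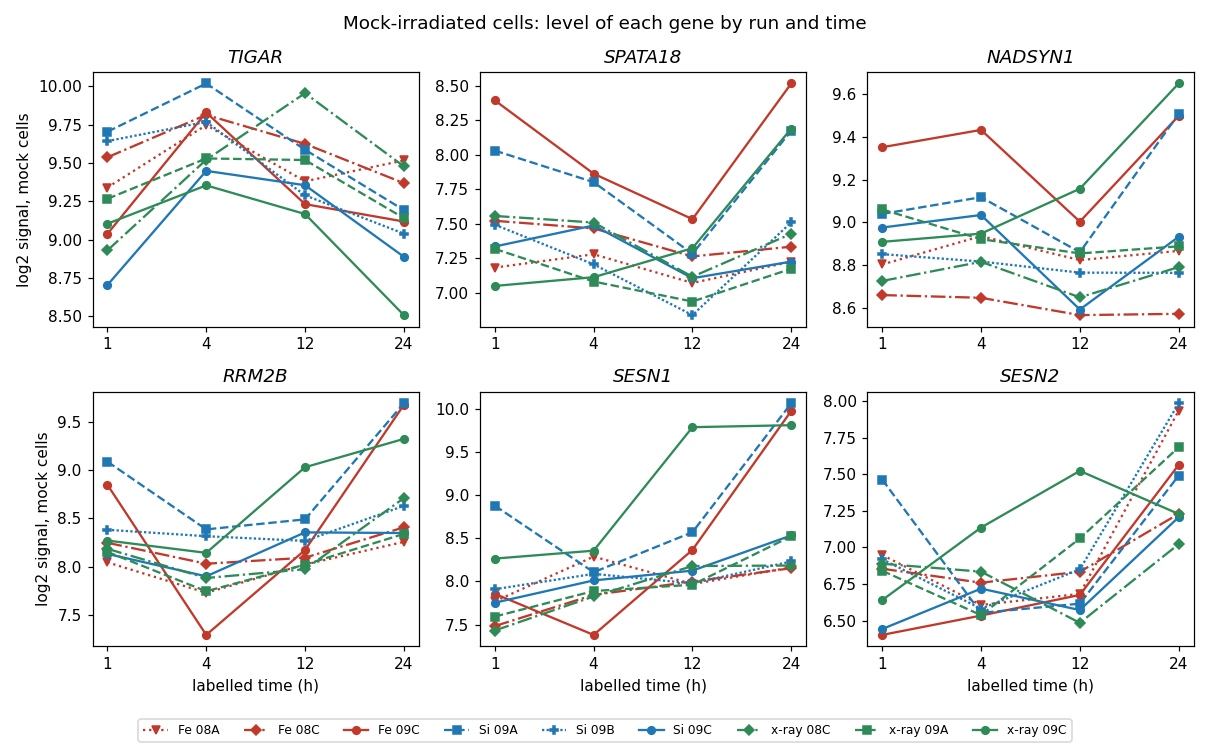
Log2 signal of the 6 genes in mock cells (y axis) at the labelled times (x axis), 1 line per run, coloured by radiation type and drawn by campaign. SESN1, RRM2B, SPATA18 and NADSYN1 stand at 24 h in 3 raised runs (Fe 09C, Si 09A and x-ray 09C) and 6 lower ones, and x-ray 09C is already raised at 12 h for SESN1 and RRM2B.

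Over the 36 mock samples, each relative to its run, r was 0.81 between SPATA18 and NADSYN1 and 0.80 between SESN1 and RRM2B. TIGAR ran against all the others (r between -0.61 and -0.32). Of other genes of the same pathways, some were called between 12 and 24 h in mock cells, where 7.45% of all probes were called higher and 8.45% lower. Of 25 other p53 targets 8 were higher and 0 lower, with GDF15 at 1.22 and GADD45A at 0.63. Of 10 genes of deoxynucleotide supply 3 were lower and 0 higher, among them RRM2 (-1.25) and the thymidylate synthase TYMS (-0.58), while RRM2B was higher. Of 7 genes of glutamine and glutamate metabolism 5 were higher, among them glutamine synthetase GLUL (0.63), and of 13 genes of NAD synthesis 4 were, among them NMRK1 (0.71). Of 19 sestrin partners 4 were higher and 1 lower, with SESN3, a further sestrin, at 0.42 and MTOR at -0.28. PFKFB3, which makes the metabolite that TIGAR removes, was at -0.47, and of 23 glycolytic and pentose phosphate enzymes 2 were higher, close to the share over all probes, and 4 lower.

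No member differed detectably between mock cells at 1 h and the reference at 0 h. Of all probes 0.0164% were called, with no member among them, and the differences nearest to a call were those of SESN1 (-0.41 ± 0.49, adjusted p = 0.29) and SESN2 (-0.36 ± 0.46, adjusted p = 0.34), each lower at 1 h in 7 of 9 runs. SESN1 had 7.43, 7.77 and 8.88 in mock cells at 1 h, against 7.76, 8.18 and 9.09 in reference cells.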

How the data were processed

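Transcripts were measured on 134 Illumina HumanWG-6 V2 arrays, on 35 chips. The deposited bead signals are intensities per probe extracted by the authors, neither background-corrected nor normalized. The authors' value table holds log2 intensities that the authors background-subtracted and quantile-normalized, and was used as an alternative. From the bead signals, background was corrected by normexp with an offset of 50, followed by quantile normalization, log2 and averaging of repeat arrays. A probe was tested if its mean exceeded 6.23, the median over probes, which kept 24350 of 48701. Probes were named through GEO's platform annotation, and 24303 had 1 symbol and 0 several.

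Each irradiated sample was set against the mock sample of its run and time, and both doses were averaged for the response. Differences were tested with limma 3.58.1 in R 4.3.3 across all tested probes and called at an adjusted p under 0.05 (Benjamini-Hochberg). Mock times were compared with the run as a fixed block. Pairing comes from the run labels, and deviations of irradiated and mock samples of a run and time from their group means correlated with a median r of 0.68 (0.27 to 0.87). Of 71 irradiated samples 17 shared a chip with their mock. Scripts were tested on simulated data. All 6 genes with a probe are named. The members and gene lists were chosen with earlier results of these data known. The number of arrays limits the precision.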

Additional observations from a re-analysis of the deposited data

Results flagged for a closer look

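TIGAR at 12 h had a mean log2 ratio to mock that was 0.33 higher after Fe than after Si. All 3 runs of Fe were above 0 and all 3 of Si below 0, which drew attention to it, and the test over the 3 radiation types at 12 h gave an adjusted p of 0.67 (limma). Without Fe 08A, which had 1 Gy only at that time, the mean after Fe was 0.21 above that after Si. In 3 further cases a single mock sample lay far from the other 8 runs, in each case x-ray 09C, the run whose samples resembled later times than their labels. SESN1 at 12 h was 9.79 there, against 7.96 to 8.57 in the others. RRM2B at 12 h was 9.03, against 7.97 to 8.49. SESN2 at 4 h was 7.13, against 6.53 to 6.83. Chance flags about 1 in 20 groups by this criterion, and 54 groups were examined. The part of the time labels in these 3 values was not tested.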

How the results depend on the processing

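The count of members called is given under each of 21 alternatives, 20 of them planned. In the response to radiation 3 members were called at 1 time or more in the main analysis, a description only, since these ratios chose the members. With arrays scaled to equal medians, with no replicate block (an unpaired fit) and with chip as a random block, 0 were called, and 1 was called with the trend and robust options and with the lower dose only. Leaving out 1 run at a time gave 1 to 3. In the difference between doses, tested over the 4 times together, 0 members were called (SESN1 after Fe passed at 24 h alone), and 1 (SESN2 after Si) with no background correction, with a normexp offset of 16, with the trend and robust options and with the run as a random replicate block, while leaving out 1 run gave 0 to 1. In the mock time course 5 were called, 1 with arrays scaled to equal medians, 4 with no replicate block, and 5 without the 3 runs of 09C (added after seeing the data), where the difference of NADSYN1 between 24 and 12 h was 0.15 (adjusted p = 0.20). Counts over all probes moved too: the mock time course called 6159 probes, 962 with median scaling and 2693 with no replicate block, and the Fe dose difference at 24 h called 1386, 1 with median scaling and 0 with no replicate block or without run 08C. The causes were not tested. Differences between radiation types, at 1 Gy and between mock at 1 h and the reference called 0 members in the main analysis and in every alternative run. No called value of a member changed sign. Precision is limited by 3 runs per radiation type.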
